A study of Mus musculus with 6 samples.

Results

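The ISG15 conjugation system was examined in primary mouse renal fibroblasts through its 5 genes Isg15, Uba7, Ube2l6, Herc6 and Usp18. The genes were chosen by name, with earlier results of these data known. They are 5 of the 34745 rows of the deposited count table, and all 5 were among the 13088 genes with enough counts to test. The fibroblasts were grown out of digested kidneys of WT mice and left to adhere for 6 h. In 3 libraries the fibroblasts had no treatment. In 3 libraries they were kept for 24 h below a 0.4 μm insert holding Th17 cells, the helper T cells that make interleukin-17, and only the fibroblasts in the lower chamber were collected. The Th17 cells had been induced from CD4+ T cells on anti-CD3 and anti-CD28 antibodies with IL-1β, IL-6, IL-23 and an antibody that neutralises IFN-γ. The study kept Balb/c mice, but the sources used here do not name the strain again for the fibroblast preparation. Sex and age of the mice are not stated in the sources used here, nor is the time that lone fibroblasts were kept after adherence. An empty insert above the lone fibroblasts, and separate cultures or animals for the 3 libraries of a group, are not stated either. SD, SE and p therefore describe the spread between libraries, which may be technical.

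Totals ranged from 12050529 to 13209581 counts per library. Of 12 fibroblast markers all were tested, and past the threshold 4 were lower and 1 was higher, with a median log2 fold change of −0.53. Their summed level, most of it Col1a1, Col1a2 and Col3a1, was between 36096 and 37957 CPM in lone and between 15976 and 17931 CPM in cocultured fibroblasts (CPM, TMM-scaled counts relative to library size). The higher marker was Dcn, with mean levels of 505 and 1429 CPM, and Postn was at −0.04 on the log2 scale (edgeR adjusted p = 0.715). Of 15 T cell markers 6 had 0 counts in each of the 6 libraries, among them Cd3d, Il17a and Il17f, but others were detected. Trac had 20, 40 and 38 counts alone and 41, 27 and 38 with Th17 cells, Lck had 49, 68 and 59 alone and 33, 34 and 23 with Th17 cells, and Cd3e had 6 counts in cocultured replicate 3. A total of 3 counts, taken as the floor, corresponded to between 0.223 and 0.254 CPM, for counting error only.

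ISG15 is a small protein with a pair of ubiquitin-like domains that interferon induces strongly in most cells. Like ubiquitin it is attached to lysines of other proteins by a relay of enzymes. UBA7 is the E1 enzyme that activates ISG15, and UBE2L6 is the E2 enzyme that carries it. In the mouse HERC6 is the main E3 ligase that transfers ISG15 to other proteins. USP18 is the protease that removes ISG15 again, and it also binds the receptor chain IFNAR2 and dampens the response to type I interferon. All these genes are known as interferon-induced genes, and ISG15 that is not attached is also secreted and acts as a cytokine.

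Interferon-induced genes are often switched on through the interferon-stimulated response element (ISRE), the DNA motif bound by a complex that holds STAT2 and IRF9. Promoter windows of 300 bases (250 before and 50 after the start site, RefSeq on GRCm38.p6) were matched for 4 of the 5 genes, all but Usp18. The ISRE was searched as GAAA, any 2 bases and GAAA again, on both strands, and 3.44% of all 32851 promoter windows held it. Among the matched genes it was found for Isg15, where 3 overlapping copies form a run of 22 bases, from 78 to 57 bases before the start site. The gamma-activated site (GAS), TTCNNNGAA, was in none of the 4 windows and in 8.30% of all windows. A shorter motif bound by interferon regulatory factors, AANNGAAA, was added after the sequences had been seen. It is contained in each ISRE copy, was in 23.9% of all windows, and was found for Isg15 and Uba7. The 250 bases before the start of Isg15 (chr4:156200819-156201068, minus strand) are shown with the ISRE copies in capitals. For Uba7, 30 bases from 38 to 9 bases before the start (chr9:107975529-107975558, plus strand) are shown with the AANNGAAA match, on the opposite strand, in capitals. This RefSeq start, at 107975567, lies inside the gene as deposited, which begins at 107975505, and so do the bases shown. For contrast, the 250 bases before Ube2l6 (chr2:84798578-84798827, plus strand) hold none of the 3 motifs. These matches describe letters and not occupied sites.
Isg15: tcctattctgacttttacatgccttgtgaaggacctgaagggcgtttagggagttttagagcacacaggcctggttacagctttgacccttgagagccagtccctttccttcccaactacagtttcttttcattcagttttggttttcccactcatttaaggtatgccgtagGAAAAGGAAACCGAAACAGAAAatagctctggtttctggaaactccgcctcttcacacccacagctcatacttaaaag
Uba7: actcagtctagTTTCACTTttggtttcctg
Ube2l6: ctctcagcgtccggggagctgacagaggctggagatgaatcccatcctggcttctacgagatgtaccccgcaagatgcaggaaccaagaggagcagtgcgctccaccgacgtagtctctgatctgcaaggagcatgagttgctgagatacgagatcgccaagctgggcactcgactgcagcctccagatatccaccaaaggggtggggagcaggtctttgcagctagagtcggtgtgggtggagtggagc

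The comparison of cocultured with lone fibroblasts asked which transcripts of this system change in the presence of Th17 cells. All 5 genes fell past the threshold, set at an edgeR adjusted p (quasi-likelihood test) below 0.05 together with more than a 2-fold difference. Of all genes tested, 7.78% were lower past this threshold and 3.87% were higher. The median log2 fold change (log2FC, cocultured over lone) of the 5 genes was −1.70, whereas the median of all genes tested was 0.00. CPM did not overlap between the groups for any of the 5 genes, compared with 26.1% of all tested genes that were lower without overlap. The fall ranged from 2.49-fold for the E2 gene Ube2l6 to 6.67-fold for the E1 gene Uba7. In bulk RNA, a smaller number of cells that express a gene and less of its RNA per cell cannot be told apart.

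The modifier itself was the most abundant transcript. Isg15 (ENSMUSG00000035692, chromosome 4, 156199424 to 156200818, minus strand, protein-coding, 2 exons) had 8136, 8403 and 8000 counts in lone fibroblasts. With Th17 cells it had 2669, 2454 and 2858 counts. Every cocultured library was thus far below every lone library, and replicates lay close together. Mean expression was 658 ± 23.2 CPM alone and 203 ± 12.9 CPM with Th17 cells (SD, n = 3 each), 3.24-fold lower. The log2FC was −1.70 (SE 0.0655, edgeR adjusted p = 1.37e-07), so the difference exceeded the scatter of the replicates. No other gene of the table overlaps Isg15.

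The protease gene fell alongside the modifier. Usp18 (ENSMUSG00000030107, chromosome 6, 121245906 to 121270917, plus strand, 11 exons) had 6001, 6022 and 5380 counts in lone and 1917, 1769 and 2227 counts in cocultured fibroblasts. Levels were 466 ± 10.4 and 150 ± 16.7 CPM (SD, n = 3 each), 3.10-fold lower with Th17 cells, without overlap of the groups. The log2FC was −1.63 (SE 0.0817, edgeR adjusted p = 6.51e-07). A gene on the opposite strand overlaps Usp18, but it had 0 counts in all libraries.

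The activating enzyme showed the largest decrease of the 5 genes. Uba7 (ENSMUSG00000032596, chromosome 9, 107975505 to 107984060, plus strand, 24 exons) had 1781, 1713 and 1591 counts in lone fibroblasts. After coculture 295, 222 and 286 counts remained, so the groups were far apart. Expression fell from 136 ± 1.95 to 20.4 ± 2.55 CPM (SD, n = 3 each), with a log2FC of −2.74 (SE 0.0960, edgeR adjusted p = 8.74e-08). The gene Gm20661 overlaps Uba7 on the same strand and had 21 counts in all libraries together.

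The ligase gene was reduced nearly as much. Herc6 (ENSMUSG00000029798, chromosome 6, 57581000 to 57664632, plus strand, 23 exons) had 3074, 2690 and 2423 counts alone and 543, 445 and 538 counts with Th17 cells. Its level fell from 219 ± 17.7 to 38.8 ± 3.30 CPM (SD, n = 3 each), which is 5.64-fold lower. The log2FC was −2.50 (SE 0.0899, edgeR adjusted p = 1.04e-07). RP24-491O6.1, a gene on the same strand that overlaps Herc6, had 94 counts in all libraries together. It was also lower (log2FC −2.22, SE 0.479, edgeR adjusted p = 0.00579), and reads of these genes may not be separable.

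The conjugating enzyme was the exception in its spread. Ube2l6 (ENSMUSG00000027078, chromosome 2, 84798828 to 84810335, plus strand, 4 exons) had 1313, 1448 and 2878 counts in lone fibroblasts. With Th17 cells it had 546, 1246 and 602 counts. Lone replicate 3 was therefore high within its group, and so was cocultured replicate 2. The groups nearly touched, at 102 CPM in the lowest lone library and 98.0 CPM in the highest cocultured library. Means were 153 ± 78.4 and 61.5 ± 31.7 CPM (SD, n = 3 each). The log2FC was −1.32 (SE 0.395, edgeR adjusted p = 0.0274). The within-group SD of log2 CPM was 0.684 for Ube2l6, a value at the 99.1 percentile of 10037 genes whose mean reached 100 counts in either group. For the other members it lay between 0.0736 for Isg15 and 0.133 for Uba7. No gene of the table overlaps Ube2l6, and its nearest tested neighbours did not share these deviations. Serping1 had 5762, 6255 and 5822 counts alone and 1110, 1155 and 909 with Th17 cells. Timm10 had 122, 128 and 98 counts alone and 114, 116 and 190 with Th17 cells.

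**Figure D1:**
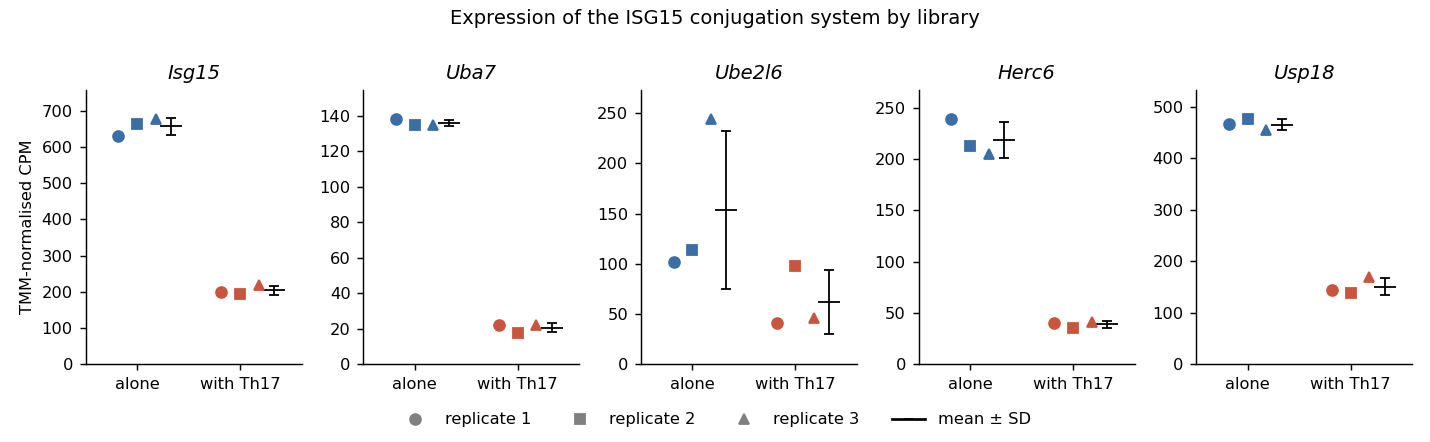
TMM-normalised CPM (y axis, linear and starting at 0, with its own scale in each panel) of the 5 genes in 3 lone (blue) and 3 cocultured (red) libraries, with mean ± SD in black. Isg15, Uba7, Herc6 and Usp18 form tight and separate groups, whereas Ube2l6 reaches from 102 to 244 CPM alone and from 40.6 to 98.0 CPM with Th17 cells.

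Because of this spread, the call for Ube2l6 depended on single libraries, and the calls for the other members did not. Without lone replicate 3 the log2FC of Ube2l6 was −0.82 (edgeR adjusted p = 0.0893). Without cocultured replicate 1 it was −1.09 (edgeR adjusted p = 0.0889), and without cocultured replicate 3 it was −1.14 (edgeR adjusted p = 0.0836). Without cocultured replicate 2, the high library of its group, the value was −1.82 (edgeR adjusted p = 0.00770). DESeq2 gave an adjusted p of 0.0549 for Ube2l6 with all libraries. The 6 fits that each left out a library gave between −1.75 and −1.66 for Isg15, between −2.79 and −2.64 for Uba7, between −2.54 and −2.43 for Herc6 and between −1.72 and −1.58 for Usp18.

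**Figure D2:**
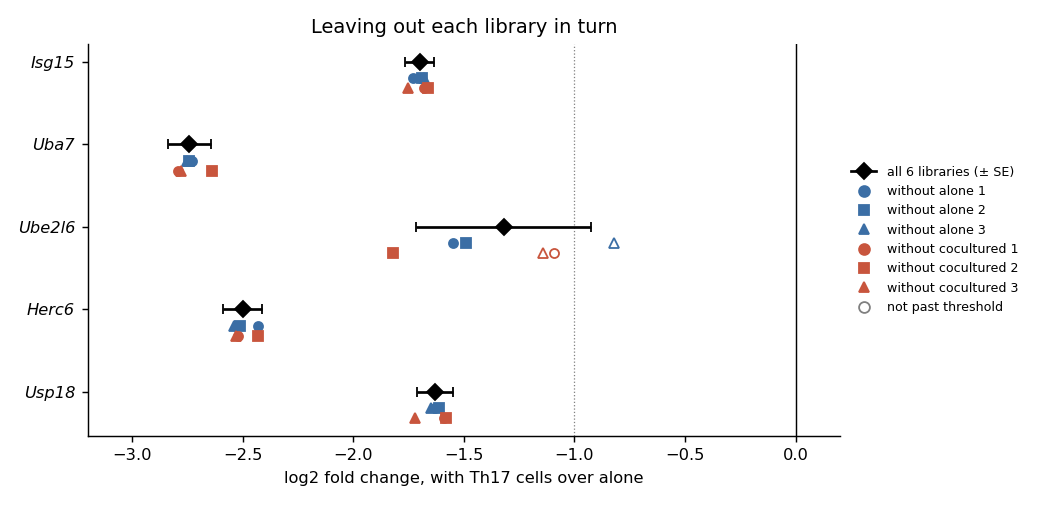
Log2 fold change (log2FC, x axis) of each gene from all 6 libraries (black diamonds, ± SE) and after leaving out each lone (blue) or cocultured (red) library. Open symbols are not past the threshold, and all 3 of them belong to Ube2l6, whose values run from −1.82 to −0.82.

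Levels of different genes were compared per length, as deposited FPKM, which scale fragments to gene length and library size. In lone fibroblasts the order was Isg15 with 850 ± 32.5, Usp18 with 132 ± 2.71, Ube2l6 with 45.2 ± 23.3, Herc6 with 20.1 ± 1.57 and Uba7 with 10.8 ± 0.125 FPKM (SD, n = 3 each). With Th17 cells the order was the same, at 274 ± 19.2, 44.6 ± 5.21, 18.9 ± 9.63, 3.73 ± 0.339 and 1.69 ± 0.220 FPKM (SD, n = 3 each). None of the neighbours in this order overlapped in FPKM within a group: lone Ube2l6 was at least 30.0 FPKM and lone Herc6 at most 21.9. Isg15 made up 80.4 ± 1.06% of the summed FPKM of the 5 genes alone and 79.9 ± 2.23% with Th17 cells (SD, n = 3 each). The summed FPKM itself was 1059 ± 50.0 alone and 343 ± 20.2 with Th17 cells (SD, n = 3 each). The length behind these values matters. As a share of summed CPM, without regard to length, Isg15 made up 40.3% alone and 42.9% with Th17 cells, and per kilobase of the main annotated transcript it made up 66.0% and 65.9%. The deposited FPKM of Isg15 corresponds to 756 bases, the length of its transcript, but that of Uba7 to 12341 bases, while its main annotated transcript has 3195. For Herc6 the lengths were 10630 and 4767 bases, for Ube2l6 3316 and 1560, and for Usp18 3447 and 1771. Per kilobase of the main transcript, a scale added after seeing these lengths, lone Herc6 and Uba7 were closer, at 45.9 ± 3.71 and 42.6 ± 0.611 CPM per kilobase (SD, n = 3 each). The gap between lone Herc6 and lone Uba7 in FPKM thus rests on the deposited lengths, and their order was not settled.

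Ratios within a library do not depend on library totals and, between the groups, not on gene length. By these ratios Uba7 and Herc6 fell further than the modifier, while the groups overlapped for Usp18. The spread of Ube2l6 was too wide to place it. FPKM of Usp18 per FPKM of Isg15 was 0.162, 0.157 and 0.147 alone and 0.158, 0.158 and 0.171 with Th17 cells. The groups overlapped in this ratio. Uba7 per Isg15 was 0.0134, 0.0125 and 0.0122 alone and 0.00677, 0.00554 and 0.00613 with Th17 cells. The mean ratio was 2.06-fold lower with Th17 cells, and the groups were separate. Herc6 per Isg15 was 0.0269, 0.0228 and 0.0215 alone and 0.0145, 0.0129 and 0.0134 with Th17 cells, 1.75-fold lower by the means and again without overlap. Ube2l6 per Isg15 ranged from 0.0368 to 0.0820 alone and from 0.0466 to 0.116 with Th17 cells, so the groups overlapped. Relative to the modifier and its protease, transcripts of the E1 and the E3 enzyme were thus scarcer in every cocultured library than in any lone library. These differences in ratios were not tested. The smallest p of an exact permutation test of 3 libraries against 3 is 0.1.

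**Figure D3:**
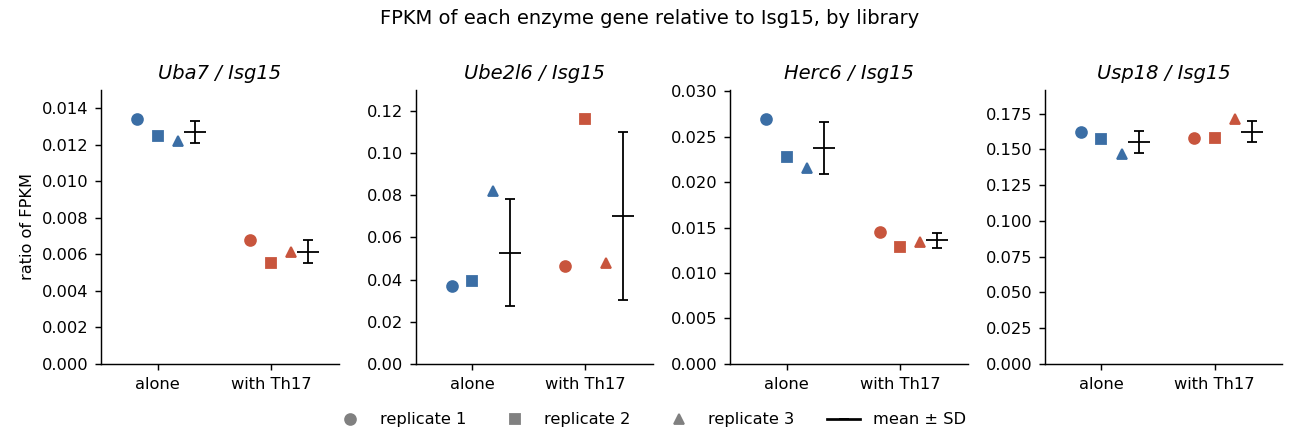
FPKM of each enzyme gene divided by the FPKM of Isg15 in the same library (y axis, starting at 0), for 3 lone (blue) and 3 cocultured (red) libraries with mean ± SD in black. The ratio separates the groups for Uba7 (0.0127 and 0.00615 on average) and Herc6 (0.0237 and 0.0136), and overlaps for Usp18 and Ube2l6.

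The genes lie on 4 chromosomes, and Herc6 and Usp18 share chromosome 6. The nearest tested gene on each side was examined for every member. Of these 10 neighbours, 3 were lower and 1 was higher past the threshold. Among all genes tested, 7.78% were lower and 3.87% higher past it. An effect of position was not tested. Serping1, which encodes the C1 inhibitor and is known as an interferon-induced gene, lies 23384 bases from Ube2l6 and had a log2FC of −2.56 (SE 0.101, edgeR adjusted p = 1.57e-07). AW011738, 2486 bases from Isg15, had a log2FC of −1.23 (SE 0.164, edgeR adjusted p = 0.000374). Traip, a ubiquitin ligase gene 3235 bases from Uba7, had −1.06 (SE 0.190, edgeR adjusted p = 0.00209). On the other side of Uba7, 163 bases away, Fam212a had a log2FC of 0.67 (SE 0.246, edgeR adjusted p = 0.0597). Agrn, the gene of the matrix protein agrin on the other side of Isg15, changed little, at −0.32 (SE 0.0569, edgeR adjusted p = 0.00198). Tuba8, a tubulin gene next to Usp18, rose by 1.03 (SE 0.220, edgeR adjusted p = 0.00548).

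The genes whose profile over the 6 libraries was closest to the mean profile of the 5 members were Cdon, Sorcs2, Star, Dhx58 and AI607873. Likeness was measured as the root mean square difference of log2 CPM, each gene centred on its own mean, over 10032 genes outside the system. It was between 0.0783 for Cdon and 0.108 for AI607873. Isg15 itself had 0.160 and Ube2l6 had 0.591, so each of the 5 members lay farther from their mean profile than these genes did. Dhx58, which encodes the RNA helicase LGP2 of antiviral sensing, decreased from 88.7 ± 1.72 to 22.6 ± 1.29 CPM (SD, n = 3 each; log2FC −1.97, edgeR adjusted p = 1.37e-07). Cdon encodes a surface receptor of hedgehog signalling and had a log2FC of −1.99, Sorcs2 encodes a sorting receptor and had −2.07, and Star encodes a cholesterol transporter of mitochondria and had −1.89. Libraries of only 2 conditions make such profiles largely a matter of equal fold change.

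Partners of the system were then examined on a list of 15 genes, of which 14 were tested. Past the threshold 2 were lower and 0 higher by edgeR, and the median log2FC of the 14 genes was −0.08. At an unadjusted p below 0.05 edgeR gave 3 higher genes, while DESeq2 and limma also gave 0 higher genes past the threshold. At an adjusted p below 0.05 with no limit on fold change 5 were lower and 2 higher by edgeR, where 20.0% of all tested genes were lower and 17.1% higher. Stat2, the transcription factor through which USP18 docks at the receptor, fell from 447 ± 4.81 to 181 ± 15.8 CPM (SD, n = 3 each; log2FC −1.30, SE 0.0717, edgeR adjusted p = 1.17e-06). Ifnar2, the receptor chain that USP18 binds, was lower by a smaller margin, at −0.74 (SE 0.0569, edgeR adjusted p = 1.12e-05). Itgb2, a chain of the integrin that binds secreted ISG15, fell from 3.14 ± 0.757 to 1.02 ± 0.349 CPM (SD, n = 3 each; log2FC −1.62, SE 0.323, edgeR adjusted p = 0.00393). Itgal, the other chain of this integrin and like Itgb2 a leukocyte gene, had 10, 6 and 0 counts alone and 0 in each cocultured library. Itgb2 had 48, 43 and 27 counts alone and 10, 18 and 12 with Th17 cells. Which cells gave these low counts was not tested.

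Other ligases and proteases of ISG15 differed less. Trim25, an alternative ligase that interferon also induces, had a log2FC of −0.84 (SE 0.0563, edgeR adjusted p = 4.19e-06). Arih1, a further ligase that accepts ISG15, was at 227 ± 16.3 CPM alone and 251 ± 12.8 CPM with Th17 cells (SD, n = 3 each), and no difference was detected (edgeR adjusted p = 0.142). Among ubiquitin proteases that can also act on ISG15, Usp21 had a log2FC of −0.07 (SE 0.114, edgeR adjusted p = 0.667). Usp13 had −0.75 (SE 0.125, edgeR adjusted p = 0.00139) and Usp14 had 0.28 (SE 0.0674, edgeR adjusted p = 0.00992). Skp2, part of the ligase that marks USP18 for degradation, had −0.28 (SE 0.141, edgeR adjusted p = 0.161). Sqstm1, a receptor of selective autophagy that binds ISG15, was higher, from 897 ± 20.5 to 1311 ± 122 CPM (SD, n = 3 each; log2FC 0.55, SE 0.0709, edgeR adjusted p = 0.000315).

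Of 17 genes whose proteins have been reported as targets of ISG15, all were tested, and 5 were lower and 0 higher past the threshold. Their median log2FC was −0.06. By edgeR 3 were higher at an unadjusted p below 0.05, and DESeq2 and limma gave 0 higher past the threshold. Among the lower genes were Eif2ak2, Mx1, Ifih1 and Ifit1, which are themselves interferon-induced. Mx1, an antiviral GTPase, had a log2FC of −5.48. Values were −1.69 for Ifit1, which binds foreign RNA, −1.66 for Ifih1, the RNA sensor MDA5, and −1.17 for Eif2ak2, the kinase PKR. Ddx58, the RNA sensor RIG-I, was at the border of the fold change limit, with −1.0 (SE 0.0713, edgeR adjusted p = 6.57e-06). At an adjusted p below 0.05 without this limit, 7 were lower and 1 higher by edgeR, and 9 passed in neither direction. Among these, Jak1 (−0.03), Ube2n (−0.02) and Trp53 (−0.06) had values close to 0. Eif2ak2 overlaps another gene of the table.

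Other ubiquitin-like systems served as a comparison for the enzymes. Of 35 genes of ubiquitin, SUMO, NEDD8, UFM1 and autophagy conjugation and of other HERC ligases, 34 were tested. Past the threshold 0 were lower and 2 higher by edgeR, with a median log2FC of 0.06. At an unadjusted p below 0.05 edgeR gave 3 lower genes, and DESeq2 and limma gave 0 lower past the threshold. With no limit on fold change 1 was lower and 5 higher at an adjusted p below 0.05. Uba1, the main E1 enzyme of ubiquitin, was at 598 ± 23.1 and 622 ± 17.2 CPM (SD, n = 3 each; log2FC 0.06, SE 0.0553, edgeR adjusted p = 0.466). Uba6, the other E1 enzyme of ubiquitin, had a log2FC of 0.25 (SE 0.104, edgeR adjusted p = 0.0955). Ubb, which encodes ubiquitin, had −0.23 (SE 0.0832, edgeR adjusted p = 0.0563). Isg15 per Ubb, as a ratio of FPKM, was 7.91 ± 0.172 alone and 2.88 ± 0.266 with Th17 cells (SD, n = 3 each).

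The closest relative of Ube2l6 moved the opposite way. Ube2l3, a conjugating enzyme of ubiquitin, had 203, 182 and 171 counts alone and 425, 437 and 442 counts with Th17 cells, without overlap. It rose from 14.9 ± 0.774 to 33.2 ± 1.42 CPM (SD, n = 3 each; log2FC 1.16, SE 0.0930, edgeR adjusted p = 1.42e-05), and it overlaps 2 other genes of the table. Ube2l6 per Ube2l3, as a ratio of FPKM, was 18.0, 22.2 and 46.9 alone and 3.58, 7.95 and 3.80 with Th17 cells. In this ratio the groups did not overlap. The other gene that rose past the threshold was Atg7, the E1 enzyme of autophagy (log2FC 1.16, SE 0.101, edgeR adjusted p = 2.42e-05). Of the HERC ligases, Herc3 had −0.69 (SE 0.156, edgeR adjusted p = 0.00764), Herc2 had 0.27 (SE 0.0633, edgeR adjusted p = 0.00853), and no difference was detected for Herc1 (0.20, edgeR adjusted p = 0.0570) or Herc4 (0.23, edgeR adjusted p = 0.114).

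**Figure D4:**
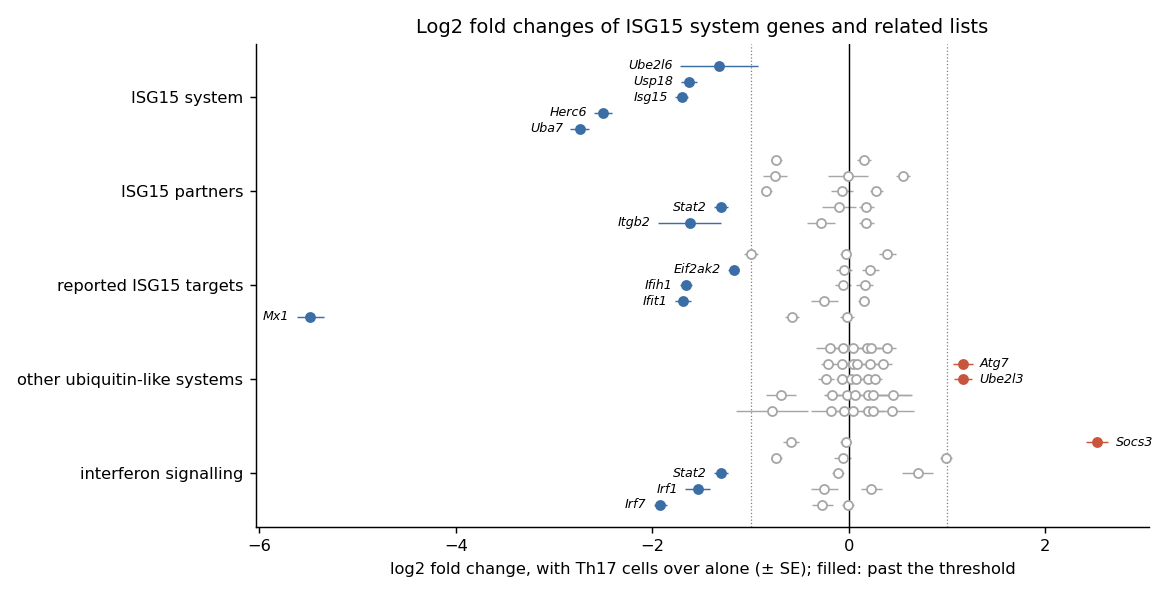
Log2 fold change with SE (x axis) of the tested genes reported here on 5 lists (rows), with filled symbols past the threshold (blue lower, red higher) and dotted lines at a fold change of 2. All 5 genes of the ISG15 system lie to the left of the lower limit, while genes of other ubiquitin-like systems cluster around 0, with Ube2l3 and Atg7 at 1.16.

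Transcripts of the signals that induce the system were examined on a list of 28 genes, which shares 2 genes with the partner list and 3 with the target list. None of the 11 interferon genes had enough counts to test, and 7 of them, including Ifng, had 0 counts in all libraries. Ifnb1, the type I interferon that fibroblasts are known to make, had 4, 6 and 4 counts alone and 0, 4 and 3 counts with Th17 cells, close to the floor. Of the 16 tested receptor and signalling genes 4 were lower and 1 higher past the threshold, with a median of −0.18. Besides Stat2, the lower genes included Irf7 (−1.92, SE 0.0655, edgeR adjusted p = 7.99e-08) and Irf1 (−1.54, SE 0.126, edgeR adjusted p = 1.60e-05), both transcription factors that bind interferon-response motifs. Irf7, Irf1 and Irf9 overlap other genes of the table. Irf9, the DNA-binding partner of STAT2, had −0.59 (SE 0.0783, edgeR adjusted p = 0.000372). Ifnar1, the other chain of the type I receptor, had −0.01 (SE 0.0591, edgeR adjusted p = 0.901). Socs3, a feedback inhibitor of cytokine receptors, was the gene that rose past the threshold, at 2.53 (SE 0.113, edgeR adjusted p = 3.18e-07). Ifngr2, a chain of the receptor for IFN-γ, was just below the limit on fold change, at 0.99 (SE 0.0583, edgeR adjusted p = 1.86e-06).

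Markers of other cell types were examined as well, and some of them fell while others did not. Macrophages express the ISG15 system. Enough counts for a test were present for 6 of 14 macrophage markers, and 4 of these fell past the threshold. The summed level of all 14 markers was between 59.5 and 63.9 CPM alone and between 20.2 and 21.5 CPM with Th17 cells. Lyz2, the most abundant of them in lone fibroblasts, fell from 27.7 ± 0.945 to 3.33 ± 0.392 CPM (SD, n = 3 each). Adgre1, which defines mouse macrophages, had 71, 47 and 55 counts alone and 0 in each cocultured library, at least 19.6-fold lower against a floor of 3 counts per library. Of the 14 markers, 6 were at 0 in all cocultured libraries, among them C1qa, C1qb and C1qc. Cd14 was at 11.2 ± 0.501 and 11.2 ± 1.68 CPM (SD, n = 3 each). The part of macrophages, T cells or endothelial cells in the values of the 5 genes was not tested. Of 15 T cell markers 3 were tested and 2 were lower, with a summed level of at most 9.65 CPM alone and 5.58 CPM with Th17 cells. The lower ones were Lck and Ptprc. Ptprc, a gene of leukocytes in general, had 14, 12 and 11 counts alone and 0 in each cocultured library. Endothelial markers summed to between 9.73 and 9.96 CPM alone and between 4.72 and 5.58 CPM with Th17 cells. Of the 3 tested, Kdr fell past the threshold, from 65, 74 and 68 counts to 2, 1 and 2. Pecam1 (log2FC 0.10) and Egfl7 (0.17) did not fall. Epithelial markers summed to at most 2.69 CPM in any library.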

How the data were processed

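RNA libraries (VAHTS Universal kit) were run on an Illumina NovaSeq. Quality filtering with Seqtk was followed by alignment to mm10, the mouse build GRCm38, in HISAT2 2.0.4, and StringTie 1.3.3b gave fragments per gene. The authors deposited raw counts and FPKM for each gene and library. Strand use and the handling of fragments that fit several genes were not stated, so overlapping genes are uncertain. Besides those marked in the results, Ifnar2, Usp14, Skp2, Sqstm1, Jak1, Herc1, Herc3 and Herc4 overlap another gene. The same holds for the markers Col1a2, Ptprc and Egfl7.

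Groups came from sample titles, and columns were assigned from descriptions. Differential expression used edgeR 4.0.16 under R 4.3.3 on the raw counts (filterByExpr with a minimum count of 10, TMM, quasi-likelihood test, Benjamini-Hochberg adjustment over 13088 genes). The threshold, taken from the study, joined an adjusted p under 0.05 to more than a 2-fold difference. The SE is the log2 fold change divided by the square root of F. All 6 libraries entered the fit, and the common dispersion was 0.0136. Positions are as deposited. Exons and transcript lengths come from GENCODE M21 on GRCm38, which held 34267 of the gene identifiers. For 59 symbols on several rows, the row with most counts was used.

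Members, lists and tests were chosen with earlier results of these data known. Named genes were the 5 members, genes of the lists, nearest tested neighbours on each side, and the 5 genes with the closest profile among those whose mean reached 100 counts in either group. Genes of the lists past the threshold or tied directly to a member were named first, and untested genes and markers were named after their values were seen. Some genes of the lists enter the counts and medians but are not reported here. The tests were checked on simulated counts. Alternatives used DESeq2 1.42.0, limma 3.58.1 on log2(FPKM + 1), other scalings and filters, a replicate block, removal of overlapping genes, and each library left out. Tables were made with Python 3.11.15, pandas 2.3.3 and matplotlib 3.10.9.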

Additional observations from a re-analysis of the deposited data

How the results depend on the processing

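Isg15, Uba7, Herc6 and Usp18 kept their direction and stayed past the threshold under every alternative that could be fitted (15 for Isg15, 14 for the others, which overlap another gene). Ube2l6 kept its direction under 15 alternatives but was no longer past the threshold under 4, namely DESeq2 (−1.32, adjusted p = 0.0549) and 3 of the fits that left out a library, with a range from −1.82 to −0.82 and with 4 to 5 members past the threshold. The alternatives for Ube2l6 gave adjusted p from 0.00770 to 0.0893. Limma on log2(FPKM + 1) moved Uba7 most, to −2.13, and the pseudocount shrinks low values by construction.

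Over all genes 1018 were lower and 506 higher. Without a limit on fold change these were 2612 and 2244, and with limma 402 and 224. Without overlapping genes 615 were lower, of which 2 were members, because 3 members overlap another gene and were not fitted. Leaving out a library gave between 978 and 1029 lower and between 498 and 522 higher genes.

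For partners of the system, 5 were lower and 2 higher without a limit on fold change, and 1 was lower with limma. Their median was −0.02 with library size only, −0.01 with limma, −0.40 without overlapping genes, and between −0.19 and 0.00 when a library was left out. For reported targets, 3 were lower without overlapping genes and 1 was higher without a limit on fold change. When a library was left out, between 5 and 6 were lower (6 without replicate 1 or 2 of either group). For other ubiquitin-like systems, 1 was lower without a limit on fold change, and between 0 and 1 when a library was left out (1 without lone replicate 3 or cocultured replicate 3). Of the same list 0 were higher with limma, 1 without overlapping genes and 5 without a limit on fold change. For interferon signalling, 1 was lower without overlapping genes. On that list 2 were higher with library size only and with limma, 3 without a limit on fold change, and between 1 and 2 when a library was left out (2 without lone replicate 2). Its median was −0.12 with library size only, −0.11 with limma, −0.27 without a filter, −0.02 without overlapping genes, and between −0.19 and −0.13 when a library was left out. The cause of these shifts was not tested, beyond the genes that each alternative removes or adds.

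As shares of summed CPM rather than FPKM, lone and cocultured values were 40.3% and 42.9% for Isg15, 8.36% and 4.32% for Uba7, 9.27% and 12.9% for Ube2l6, 13.5% and 8.20% for Herc6, and 28.6% and 31.7% for Usp18. As shares of CPM per kilobase of the main transcript, an alternative added after the data were seen, they were 66.0% and 65.9% for Isg15, 3.24% and 1.57% for Uba7, 7.34% and 9.66% for Ube2l6, 3.49% and 2.0% for Herc6, and 20.0% and 20.8% for Usp18. With FPKM they were 80.4% and 79.9%, 1.02% and 0.492%, 4.22% and 5.55%, 1.91% and 1.09%, and 12.5% and 13% in the same order.

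No shared effect of the replicate number was detected. Deviations of libraries with the same number correlated at 0.0157, −0.0256 and −0.00360, and those with different numbers at −0.0398 to 0.0458. Whether the libraries were paired is not stated in the sources used here. With the replicate number as a block, 1005 genes were lower and 490 higher, all 5 members stayed past the threshold (Isg15 −1.70, Uba7 −2.74, Ube2l6 −1.31, Herc6 −2.50, Usp18 −1.64), and 6 in place of 5 reported targets were lower. With 3 libraries a group and counts near the floor, changes in interferon genes were not detectable at this depth.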
